A study of Mus musculus with 5 samples.

Results

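The 10 genes described here are markers used to find stem and progenitor cells of the mouse mammary gland and to sort its epithelium: Procr, Ly6a, Tspan8, Kit, Prom1, Epcam, Cd24a, Cd44, Foxp1 and Bcl11b. They were chosen by gene symbol, with earlier results of these data known, and make up 10 of the 24347 symbols in the deposited tables. Of the 10, 8 encode proteins of the cell surface. Foxp1 and Bcl11b encode transcription factors, so the name of surface marker does not hold for these 2, which are read with the others for their known roles in mammary stem cells.

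The study compared Krt6a+ cells (2 libraries, numbered 2 and 3) with WAP+ cells (3 libraries, numbered 1 to 3), both sorted from precancerous mammary lesions. All 5 libraries came from MMTV-Wnt-1 transgenic mice on a mixed FVB, SJL and C57BL/6 background, so the WAP+ cells carried the transgene too. In this model the long terminal repeat of mouse mammary tumour virus (MMTV) drives Wnt-1 in the mammary epithelium, and the glands become hyperplastic and dysplastic. Krt6a+ cells were labelled as precancerous stem cells expressing keratin 6a, and WAP+ cells as cells making whey acidic protein, a milk protein of differentiated secretory cells. Each library was a small pool of cells sorted with an antibody to TVA, the receptor of an avian virus. The labels put the onset of lesions in this model at 4 to 6 weeks of age, and do not state how old the sampled animals were or how TVA came to mark each population. No label says that the libraries of a population came from separate animals, so each p-value measures only the spread between these libraries.

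Mammary epithelium has an inner luminal layer, whose cells can make milk, and an outer basal layer of contractile cells, and flow sorting separates them mostly by how much EPCAM, CD24 and integrins they carry. Within these layers PROCR and TSPAN8 have been used to mark basal stem cells of the mouse gland, KIT marks luminal progenitors, and PROM1 and the LY6A antigen (stem cell antigen 1) mark luminal cells that express hormone receptors. Wnt signalling, which the transgene turns on, is known to sustain basal stem cells, and Procr and Cd44 have been described as genes it induces.

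Values are FPKM, sequenced fragments relative to transcript length and library size, summed over the transcripts of a symbol. The libraries had 8112 and 8580 genes at 1 FPKM or more in Krt6a+ cells, against 8900, 8420 and 8202 in WAP+ cells. Krt6a and Wap, the genes that name the populations, were each higher in the population named for them. Krt6a stood at 1380 and 1133 FPKM in Krt6a+ cells, against 168, 50.01 and 120 FPKM in WAP+ cells. Wap was listed at 0 in both Krt6a+ libraries, against 50.1, 126 and 13.9 FPKM in WAP+ cells. Across genes, the rank correlation (Spearman, over genes that reached 1 FPKM everywhere) was 0.743 between the 2 Krt6a+ libraries, within the 0.696 to 0.761 seen between the populations, and 0.843 to 0.849 between WAP+ libraries. The Krt6a+ libraries were thus less like each other than the WAP+ libraries were, and several markers below differ more between the 2 Krt6a+ libraries than between populations.

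No marker passed the test between populations. On log2(scaled FPKM + 1), limma called 67 of 9682 genes tested at an adjusted p under 0.05 (0.692% of genes), 25 higher and 42 lower in Krt6a+ cells, and 0 of the 10 markers. The count of 67 became 147 without Krt6a+ library 3, and 6, 5 and 6 without WAP+ library 1, 2 and 3, while that of the markers was 0 each time. At an unadjusted p under 0.05, 4 markers passed, 2 higher (Foxp1 and Bcl11b) and 2 lower (Procr and Epcam), beside 17.1% of all genes tested (7.66% higher and 9.45% lower). For 5 markers the libraries of the populations did not overlap, 3 higher in Krt6a+ cells (Foxp1, Bcl11b and Kit) and 2 lower (Procr and Epcam), beside 34.8% of all genes tested (17.4% higher and 17.4% lower). The median log2 difference of the markers was 0.01, against -0.01 for all genes tested, with 5 markers above 0 and 5 below. Without regard to sign, the median was 1.06 for the markers and 0.73 for all genes tested. Every marker passed the filter on low values (1 FPKM in at least 2 libraries), Bcl11b through its 2 Krt6a+ libraries alone, so that its difference was partly set by the filter.

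**Figure D1:**
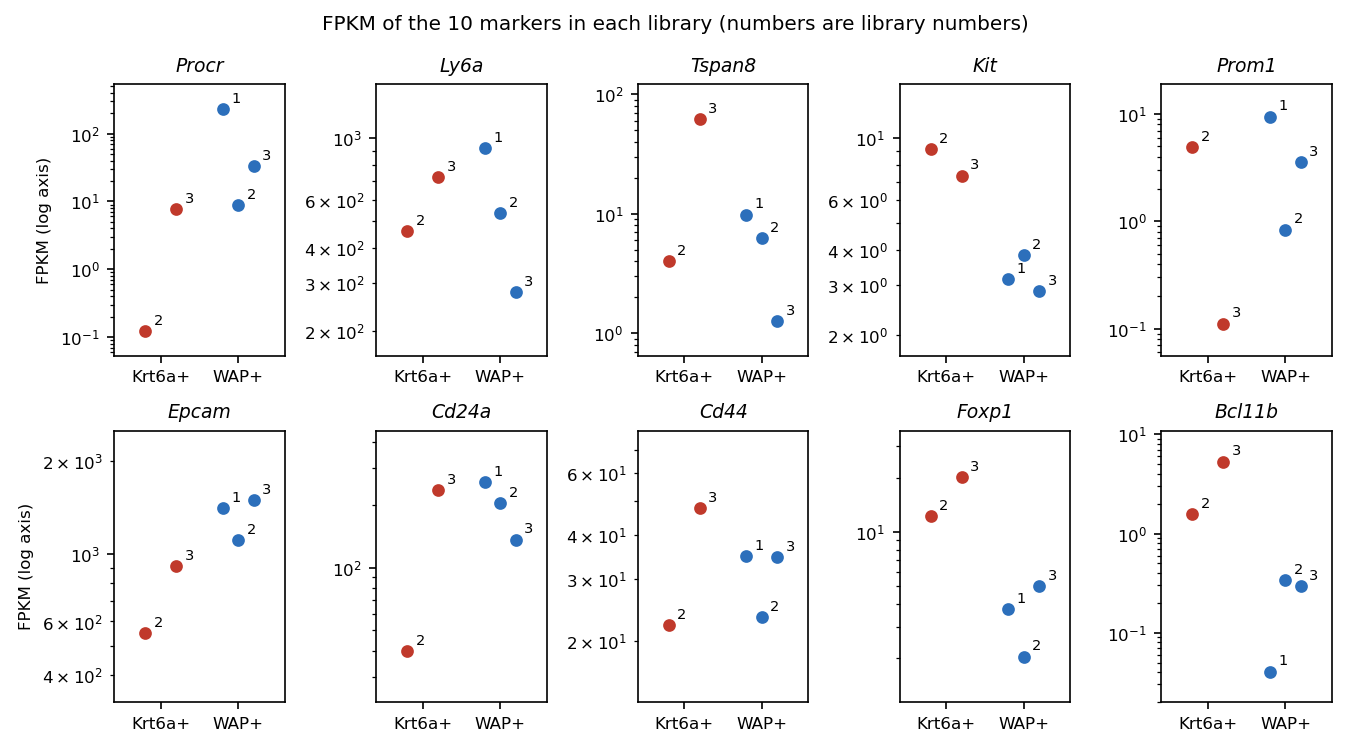
FPKM of each of the 10 markers (log axis, one panel per gene) in the 2 Krt6a+ libraries (red, left) and the 3 WAP+ libraries (blue, right), with the library number beside each point. Foxp1, Bcl11b and Kit lie higher in both Krt6a+ libraries than in any WAP+ library, Procr and Epcam lie lower, and in the other 5 panels the populations overlap.

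Ranked by level, the same 3 genes led in both populations. In Krt6a+ cells the mean scaled FPKM was 683 for Epcam, 557 for Ly6a and 125 for Cd24a, followed by Cd44 at 32.4, Tspan8 at 29.7, Foxp1 at 15.2, Kit at 7.91, Procr at 3.45, Bcl11b at 3.15 and Prom1 at 2.57. Only 2 neighbours in that order were separate in their libraries, Ly6a above Cd24a and Foxp1 above Kit. In WAP+ cells the order was Epcam at 1388, Ly6a at 572, Cd24a at 202, Procr at 82.2, Cd44 at 32.0, Tspan8 at 5.63, Prom1 at 4.43, Foxp1 at 3.77, Kit at 3.42 and Bcl11b at 0.248. There the neighbours that did not overlap were Epcam above Ly6a, Ly6a above Cd24a, Cd44 above Tspan8 and Kit above Bcl11b. Procr was the marker whose place in the order moved most, 8 in Krt6a+ cells and 4 in WAP+ cells.

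Among the stem cell markers, Procr showed the widest spread. It encodes the endothelial protein C receptor, which presents protein C to thrombin and thrombomodulin on blood vessels, and lies at chr2:155751217-155755478 (mm10) with a single transcript, NM_011171. Procr stood at 0.123 and 7.64 FPKM in Krt6a+ cells, against 227, 8.75 and 32.9 FPKM in WAP+ cells. Both Krt6a+ libraries were below every WAP+ library, but Krt6a+ library 3 and WAP+ library 2 differed by less than counting error: their deposited 95% intervals were 5.38 to 9.90 FPKM and 6.60 to 10.9 FPKM. Judged from the width of those intervals, about 1.00 and 45.8 fragments stood behind the Krt6a+ values, against 1312, 66.1 and 210 fragments in WAP+ cells. The log2 difference was -3.88 (SE 1.26, 95% interval -6.79 to -0.97, limma adjusted p = 0.173), with a scaled mean of 3.45 ± 4.70 FPKM in Krt6a+ cells (SD, n = 2) and 82.2 ± 102 FPKM in WAP+ cells (SD, n = 3). Because 1 library held about 1 fragment, that difference depends on the value added before the logarithm: it was -5.07 with 0.1 added and -2.70 with 5 added.

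Procr is also a gene of blood vessels, and WAP+ library 1 held endothelial transcripts. The summed FPKM of 13 endothelial markers was 0.396 and 7.63 in Krt6a+ cells, against 280, 17.6 and 1.16 in WAP+ cells. In WAP+ library 1, 8 of the 13 were at 1 FPKM or more, among them Cldn5 at 124 FPKM and Esam at 112 FPKM, both parts of endothelial junctions. Esam was listed at 0 in both Krt6a+ libraries and in WAP+ library 3, which had Procr at 32.9 FPKM with an endothelial sum of 1.16 FPKM. Without WAP+ library 1 the Procr difference was -2.77 (limma adjusted p = 0.317), and the part of endothelial RNA in it was not tested. In bulk pools such as these, fewer cells that express a gene and less RNA per cell cannot be told apart. Of the genes that work with PROCR in the protein C and thrombin pathway, 5 of 20 were tested and none passed. Gas6, a vitamin K dependent ligand, had a log2 difference of -1.33 (limma adjusted p = 0.339). Thbd, which encodes thrombomodulin, had -0.80 (adjusted p = 0.631) and passed the filter on low values through WAP+ libraries alone.

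**Figure D2:**
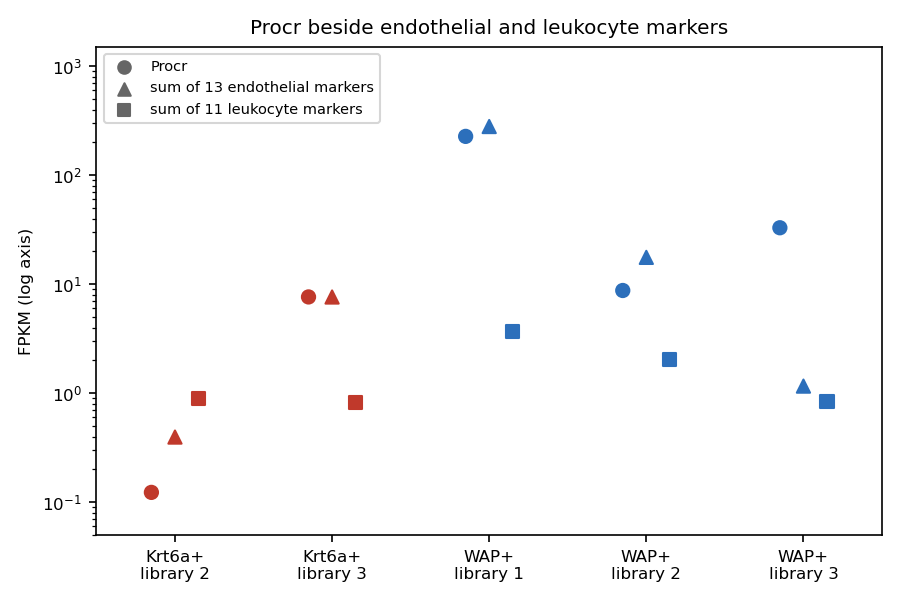
Procr (circles), the sum of 13 endothelial markers (triangles) and the sum of 11 leukocyte markers (squares) in FPKM on a log axis, for each Krt6a+ (red) and WAP+ (blue) library. Procr and the endothelial sum are both highest in WAP+ library 1 (227 and 280 FPKM), while WAP+ library 3 has Procr at 32.9 FPKM beside an endothelial sum of 1.16 FPKM.

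Tspan8, a tetraspanin of the cell surface (chr10:115817284-115849893), was set by a single library. It stood at 4.01 and 62.3 FPKM in Krt6a+ cells, against 9.83, 6.21 and 1.25 FPKM in WAP+ cells. Krt6a+ library 3 was above every other library and Krt6a+ library 2 was inside the WAP+ range. The log2 difference was 1.57 (SE 1.08, 95% interval -0.92 to 4.06, limma adjusted p = 0.492), and -0.15 without Krt6a+ library 3. That library was also the only one in which all 3 Tspan8 transcripts were above 0, at 25.8, 21.6 and 14.9 FPKM; in the other 4 only NM_001168679 was. Of 19 other tetraspanins tested, Tspan6 passed, with 57.8 and 85.8 FPKM in Krt6a+ cells, against 8.46, 4.98 and 7.46 FPKM in WAP+ cells (log2 difference 3.08, limma adjusted p = 0.0448). The Tspan6 call was lost when any 1 of the 5 libraries was left out, and with a pseudocount of 0.1, without the filter, without the trend or with the replicate block. At a limma unadjusted p under 0.05, 2 tetraspanins were higher and 2 lower, beside 7.66% and 9.45% of all genes tested. The median log2 difference of the 19 was -0.24, against -0.01 for all genes tested. The next largest statistics were those of Tspan5 (1.57, adjusted p = 0.128) and Tspan7 (-2.39, adjusted p = 0.164).

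Ly6a encodes a small antigen held in the membrane by a lipid anchor (chr15:74994877-74998031). It was among the most abundant markers, at 462 and 724 FPKM in Krt6a+ cells, against 923, 536 and 276 FPKM in WAP+ cells. The Krt6a+ values lay inside the WAP+ range, with a log2 difference of 0.05 (SE 0.46, 95% interval -1.01 to 1.10, limma adjusted p = 0.978). One of the 6 Ly6a transcripts, NM_001271419, held all of its FPKM in 4 libraries, and in WAP+ library 1 NM_010738 added 134 FPKM. Its close paralog Ly6c1, with which short reads may be shared, was listed at 0 and 5.64 FPKM in Krt6a+ cells, against 103, 34.7 and 18.4 FPKM in WAP+ cells. Fibroblasts can carry the LY6A antigen too; the sum of 10 fibroblast markers was 57.5 and 212 FPKM in Krt6a+ cells, against 18.6, 8.60 and 87.7 FPKM in WAP+ cells, most of it Dcn, and its part in the Ly6a level was not tested.

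The wider family of LY6 and uPAR domain proteins, many of them lipid-anchored surface antigens like LY6A, spread further apart. Of 13 tested, none passed the adjusted threshold, and 8 were higher and 2 lower at an unadjusted p under 0.05, beside 7.66% and 9.45% of all genes tested. The median log2 difference was 1.75 (1.87 without scaling and 2.02 after quantile normalization), against -0.01 for all genes tested. The calls of this list depended on the settings: 2 were higher after quantile normalization, 3 with a pseudocount of 5, and 3 higher and 1 lower with the stricter filter (5 FPKM). Ly6d, an antigen of stratified epithelium, stood at 3872 and 2825 FPKM in Krt6a+ cells, against 637, 168 and 455 FPKM in WAP+ cells (log2 difference 3.05, limma adjusted p = 0.0520). Ly6g6c stood at 263 and 351 FPKM in Krt6a+ cells, against 27.4, 24.6 and 3.80 FPKM in WAP+ cells (4.22, adjusted p = 0.0520). Both missed the threshold narrowly with groups that do not overlap. Cd59a, an inhibitor of complement, lay the other way, at 0.456 and 3.82 FPKM in Krt6a+ cells, against 33.5, 18.3 and 22.7 FPKM in WAP+ cells (-3.35, adjusted p = 0.0581).

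Of the luminal markers, Kit was low in every library and did not overlap between populations. It encodes the receptor tyrosine kinase for stem cell factor (chr5:75574987-75656721). Kit stood at 9.12 and 7.35 FPKM in Krt6a+ cells, against 3.15, 3.84 and 2.85 FPKM in WAP+ cells. Each population was tight, with the higher library 1.24 times the lower in Krt6a+ cells and 1.34 times in WAP+ cells. The log2 difference was 1.01 (SE 0.61, 95% interval -0.40 to 2.41, limma adjusted p = 0.443), and 0.78 to 1.24 with 1 library left out. Mast cells express Kit as well; 7 of 8 mast cell markers were listed at 0 in all 5 libraries, where a 0 can be a failed estimate, and the other one, Hdc, reached at most 0.283 FPKM. The part of mast cells in the Kit values was not tested. Kitl, the ligand, stood at 5.88 and 10.7 FPKM in Krt6a+ cells, against 8.04, 7.39 and 4.92 FPKM in WAP+ cells. None of the 18 tested genes of KIT signalling passed. Mitf is a transcription factor downstream of KIT in pigment and mast cells. It was at 2.78 and 4.30 FPKM in Krt6a+ cells, against 0.0531, 0 and 0 FPKM in WAP+ cells (2.08, limma adjusted p = 0.117). Mitf passed the filter on low values through its Krt6a+ libraries alone, so its difference was partly set by the filter. The next were Socs1, a feedback inhibitor of cytokine signalling (-2.70, adjusted p = 0.230), and Lyn, a SRC family kinase (-1.30, adjusted p = 0.382). The list thus held members on both sides of 0, with a median of 0.01. Socs1 passed the filter through its WAP+ libraries alone, so the same limit holds for it.

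Prom1, or CD133, a pentaspan protein of membrane protrusions (chr5:43993622-44101736), varied more between libraries of one population than between populations. It stood at 4.93 and 0.111 FPKM in Krt6a+ cells, against 9.44, 0.839 and 3.57 FPKM in WAP+ cells. The highest Krt6a+ library was 44.3 times the lowest, and the highest WAP+ library 11.2 times the lowest. The log2 difference was -0.80 (SE 0.99, 95% interval -3.09 to 1.48, limma adjusted p = 0.729), and 0.42 without Krt6a+ library 3, whose value corresponds to about 1.33 fragments. Of 8 Prom1 transcripts with 2 start sites, those from the downstream start held the signal in 4 libraries and NM_008935, from the upstream start, in WAP+ library 2. Prom1 shares 350 exon bases with an antisense gene, Gm16401, and the library kit does not mark strand, so reads of the pair cannot be told apart.

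Epcam, the adhesion molecule used to gate mammary epithelium, was the most abundant marker in both populations and lower in both Krt6a+ libraries. It has a single transcript, NM_008532 (chr17:87635979-87651127). Epcam stood at 549 and 908 FPKM in Krt6a+ cells, against 1408, 1108 and 1493 FPKM in WAP+ cells. The libraries did not overlap, and their deposited 95% intervals did not either: the highest Krt6a+ bound was 930 FPKM and the lowest WAP+ bound 1088 FPKM. The log2 difference was -1.03 (SE 0.36, 95% interval -1.85 to -0.20, limma adjusted p = 0.195), a fold of 2.04, but only -0.19 after quantile normalization. Among 17 partners of EPCAM and PROM1 tested none passed, and the median was 0.02. At a limma unadjusted p under 0.05, 3 were higher and 1 lower, beside 7.66% and 9.45% of all genes tested. Spint1, a protease inhibitor, had a log2 difference of 1.54 (limma adjusted p = 0.120). Cldn7, a claudin that binds EPCAM, had -1.35 (adjusted p = 0.132).

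Cd24a, a lipid-anchored glycoprotein that is higher on luminal than on basal cells (chr10:43579169-43584265), was set apart in a single Krt6a+ library. It stood at 39.6 and 236 FPKM in Krt6a+ cells, against 258, 203 and 136 FPKM in WAP+ cells. Krt6a+ library 2 was below all others and library 3 inside the WAP+ range. The log2 difference was -1.10 (SE 0.65, 95% interval -2.59 to 0.39, limma adjusted p = 0.431); it was -2.26 without Krt6a+ library 3 (adjusted p = 0.0556) and 0.07 without Krt6a+ library 2. Krt8, a keratin of luminal cells, followed the same order of the Krt6a+ libraries, at 66.2 and 719 FPKM, against 1664, 1917 and 1681 FPKM in WAP+ cells. The share of luminal cells in each pool was not tested.

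Cd44 encodes the receptor for hyaluronan, and its summed level did not differ beyond the spread between libraries. It stood at 22.2 and 47.7 FPKM in Krt6a+ cells, against 34.8, 23.4 and 34.7 FPKM in WAP+ cells, with a log2 difference of -0.02 (SE 0.46, 95% interval -1.10 to 1.05, limma adjusted p = 0.991). The interval allows a change of about 1 log2 unit either way. Within libraries, Cd44 was 0.560 and 0.202 of the Cd24a level in Krt6a+ cells, against 0.135, 0.115 and 0.255 in WAP+ cells, so this RNA ratio overlapped between the populations. The gate for CD44-high, CD24-low cells is set on surface protein, which was not measured here.

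The deposited tables also divide Cd44 among transcript forms, and no form was above 0 in every library of one population and at 0 throughout the other. The 6 Cd44 transcripts share a start (chr2:102811142-102901665, minus strand) and differ in how many of 10 variable exons, which lie between the constant exons chr2:102853015-102853236 and chr2:102828542-102828610, they keep. Variable exons lengthen the stalk of the receptor outside the cell; the form with none is the standard CD44 of blood and mesenchymal cells, and forms with variable exons are typical of epithelia. The sequences below, read on the GRCm38 genome along the transcript, show what tells the forms apart: each ends the last constant exon with the same 15 bases (lower case) and goes on with the first 15 bases of the exon joined to it (capitals).
NM_001039151, no variable exon: gcaccttggccaccaGAGATCGAGACTCAT
NM_001177787, 2 variable exons: gcaccttggccaccaCACAGAGTCATTCTC
NM_001177786, 3 variable exons: gcaccttggccaccaATACAGACTCCAGTC
NM_001039150, 5 variable exons: gcaccttggccaccaCTCCTAATAGTACAG
NM_001177785, 7 variable exons: gcaccttggccaccaTTGCAAGTACTCCAC
NM_009851, 10 variable exons: gcaccttggccaccaTTGCCTCAACTGTGC

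The form without a variable exon was listed at 0 in both Krt6a+ libraries and in WAP+ library 1, and made up 55.1% and 64.0% of Cd44 FPKM in WAP+ libraries 2 and 3. In Krt6a+ library 2 all Cd44 signal was in the forms with 7 (46.2%) and 10 variable exons (53.8%), and in Krt6a+ library 3 it was spread over those with 2 (43.3%), 5 (28.5%) and 7 (28.2%). WAP+ library 1 had 80.6% in the form with 2 variable exons and 19.4% in that with 10. Weighted by FPKM, a Cd44 transcript had a mean of 8.61 and 4.26 variable exons in Krt6a+ cells, against 3.55, 2.63 and 1.80 in WAP+ cells. The populations did not overlap in this mean, but the gap between the 2 Krt6a+ libraries was wider than that between Krt6a+ library 3 and WAP+ library 1. These values are a description with no test: short reads place a fragment on 1 of several overlapping transcripts only by estimate, and an exact 0 in these tables can be a failed estimate, and Eno1, a glycolytic gene every cell uses, was listed at 0 in all 5 libraries.

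**Figure D3:**
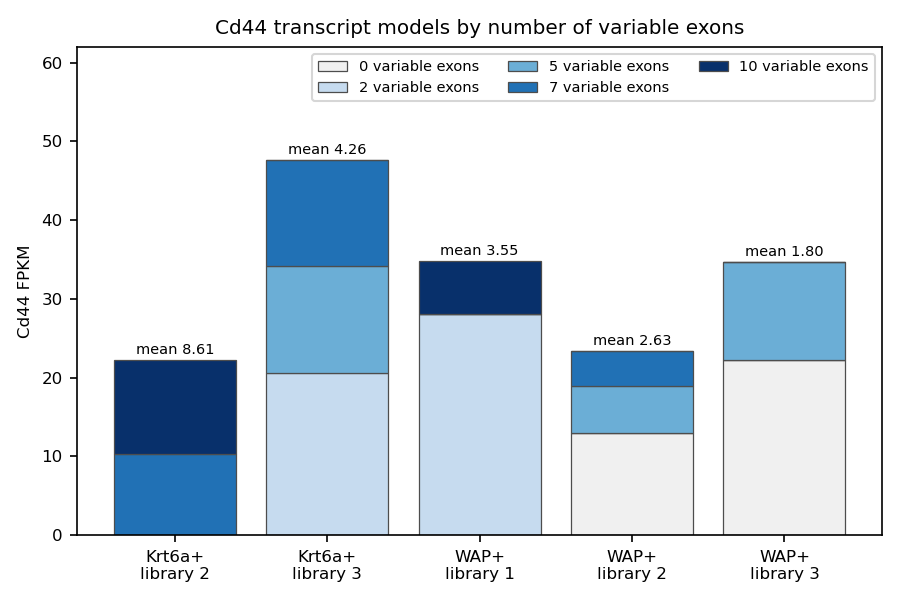
Cd44 FPKM in each library, Krt6a+ on the left, stacked by the number of variable exons of the transcript (darker means more), with the FPKM-weighted mean number above each bar. The means are 8.61 and 4.26 in Krt6a+ cells, against 3.55, 2.63 and 1.80 in WAP+ cells, and the pale form without variable exons appears in WAP+ libraries 2 and 3.

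Of 16 tested partners of CD44 and hyaluronan, Spp1 passed and the median log2 difference was 0.04. Spp1 encodes osteopontin, a secreted ligand of CD44 and integrins, and fell to 13.6 and 56.8 FPKM in Krt6a+ cells, against 4698, 2477 and 1201 FPKM in WAP+ cells (log2 difference -6.50, SE 0.63, limma adjusted p = 0.0111), a call that was lost without any 1 of the WAP+ libraries and without the filter on low values. The next were Hyal1, a hyaluronidase (2.54, adjusted p = 0.128), and Ezr, which encodes ezrin, a linker of membrane proteins such as CD44 to actin (1.15, adjusted p = 0.180).

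Both nuclear regulators were higher in each Krt6a+ library than in any WAP+ library. FOXP1 is a forkhead repressor known to govern the exit of mouse mammary stem cells from quiescence, with Tspan8 among the genes it represses there, and BCL11B is a zinc finger repressor known to keep basal mammary stem cells quiescent. Foxp1 (chr6:98925342-99435345) stood at 12.2 and 20.2 FPKM in Krt6a+ cells, against 3.74, 2.05 and 5.04 FPKM in WAP+ cells. Its lowest Krt6a+ value was more than its highest WAP+ value, with a log2 difference of 1.81 (SE 0.62, 95% interval 0.39 to 3.23, limma adjusted p = 0.189), a fold of 3.50, and 1.54 to 2.08 with 1 library left out. Bcl11b (chr12:107910403-108003414) stood at 1.57 and 5.31 FPKM in Krt6a+ cells, against 0.0404, 0.338 and 0.296 FPKM in WAP+ cells. Its log2 difference was 1.64 (SE 0.62, 95% interval 0.21 to 3.07, limma adjusted p = 0.229). Bcl11b passed the filter on low values through its Krt6a+ libraries alone, so its difference and direction were partly set by the filter. The WAP+ values were near the limit of detection: the interval width of the transcripts corresponds to at most 12.8 fragments in a WAP+ library, against 49.6 for the single transcript above 0 in Krt6a+ library 2. For that reason the Bcl11b difference ran between 0.61 with 5 added before the logarithm and 3.24 with 0.1 added.

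T cells express Bcl11b strongly, so their markers were read beside it. Of 9 T cell markers in the files, 6 were listed at 0 in all 5 libraries, Cd3d, Cd3e and Cd3g among them. The sum of the 9 was 0.204 and 4.98 FPKM in Krt6a+ cells, against 0.547, 0 and 1.43 FPKM in WAP+ cells, and the 4.98 FPKM of Krt6a+ library 3 was Lck alone. Since an exact 0 in these tables can be a failed estimate, those zeros do not show absence, and the part of T cells in the Bcl11b values was not tested. Ptprc, the surface protein of all leukocytes, was listed at 0 in every library.

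The Foxp1 signal came from different start sites. NM_053202, from the most upstream of 3 starts, stood at 12.2 and 8.86 FPKM in Krt6a+ cells, against 0, 0 and 3.38 FPKM in WAP+ cells. NM_001197322, whose start at chr6:99028298 lies inside the gene, stood at 0 and 11.3 FPKM in Krt6a+ cells, against 3.74, 2.05 and 1.66 FPKM in WAP+ cells. The upstream start was thus the one listed higher in both Krt6a+ libraries, and the inner start overlapped between the populations; NM_001197321 was listed at 0 throughout. Foxp1 shares 300 exon bases with Gm20696 on the same strand, so part of its reads may belong to that gene. Foxp1 was 3.05 and 0.324 times the Tspan8 level within Krt6a+ libraries, against 0.380, 0.330 and 4.03 times within WAP+ libraries, and this ratio did not order the populations.

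The promoters of the 4 markers with the smallest unadjusted p are shown to compare their start sites, with RefSeq sequence on GRCm38.p6, 250 bases before to 50 after the start. RefSeq windows were found for 8 of the 10 markers, not for Ly6a or Cd24a. For Foxp1 the window shown is that of the inner start, since none was found at the start of NM_053202. Foxp1 windows at chr6:99266466-99266765, the start of NM_001197321, and at chr6:99520944-99521243 were also found and are not shown. Capitals mark matches on either strand to the TCF/LEF core CTTTGA, bound by the factors through which Wnt acts, the forkhead core TGTTTA, or the GC box GGGCGG.
Foxp1, chr6:99028249-99028548, minus strand: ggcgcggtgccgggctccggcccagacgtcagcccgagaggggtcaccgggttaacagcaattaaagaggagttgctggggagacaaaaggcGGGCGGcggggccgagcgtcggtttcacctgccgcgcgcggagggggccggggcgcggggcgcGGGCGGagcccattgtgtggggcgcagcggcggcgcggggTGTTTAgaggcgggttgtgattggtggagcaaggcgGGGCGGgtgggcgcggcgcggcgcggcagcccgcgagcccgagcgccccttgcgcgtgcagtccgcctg
Bcl11b, chr12:108003365-108003664, minus strand: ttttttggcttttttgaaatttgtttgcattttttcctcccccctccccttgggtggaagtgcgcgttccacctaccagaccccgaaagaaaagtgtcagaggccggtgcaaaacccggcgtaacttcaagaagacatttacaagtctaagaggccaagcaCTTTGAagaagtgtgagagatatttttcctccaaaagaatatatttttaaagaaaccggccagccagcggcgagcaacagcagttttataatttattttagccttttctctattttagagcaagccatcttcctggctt
Procr, chr2:155750967-155751266, plus strand: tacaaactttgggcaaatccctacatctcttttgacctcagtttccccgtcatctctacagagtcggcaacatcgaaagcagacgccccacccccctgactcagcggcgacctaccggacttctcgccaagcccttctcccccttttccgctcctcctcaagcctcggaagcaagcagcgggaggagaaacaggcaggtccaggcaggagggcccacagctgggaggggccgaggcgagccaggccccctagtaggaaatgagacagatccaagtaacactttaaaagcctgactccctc
Epcam, chr17:87635729-87636028, plus strand: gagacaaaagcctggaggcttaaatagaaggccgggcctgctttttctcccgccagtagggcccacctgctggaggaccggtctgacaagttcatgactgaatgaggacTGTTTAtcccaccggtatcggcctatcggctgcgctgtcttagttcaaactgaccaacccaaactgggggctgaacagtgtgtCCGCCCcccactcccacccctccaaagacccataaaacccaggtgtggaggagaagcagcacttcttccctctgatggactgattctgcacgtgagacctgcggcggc

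The inner Foxp1 window held 3 GC boxes, 1 forkhead core and 44 CpG dinucleotides at 75.3% GC, against medians of 7 CpG and 52.7% GC over 32851 RefSeq promoters. The Foxp1 window at the start of NM_001197321 held 1 TCF/LEF core and 2 forkhead cores at 48.7% GC. That at chr6:99520944-99521243 held 1 forkhead core and 1 GC box. Bcl11b had 1 TCF/LEF core and none of the other motifs in a window of 43.0% GC. The Epcam window had 1 forkhead core and 1 GC box, and that of Procr none of the 3 motifs. Over all promoters the TCF/LEF core was present in 16.0%, the forkhead core in 13.4% and the GC box in 35.7%. A match is a string of letters and says nothing of binding.

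**Figure D4:**
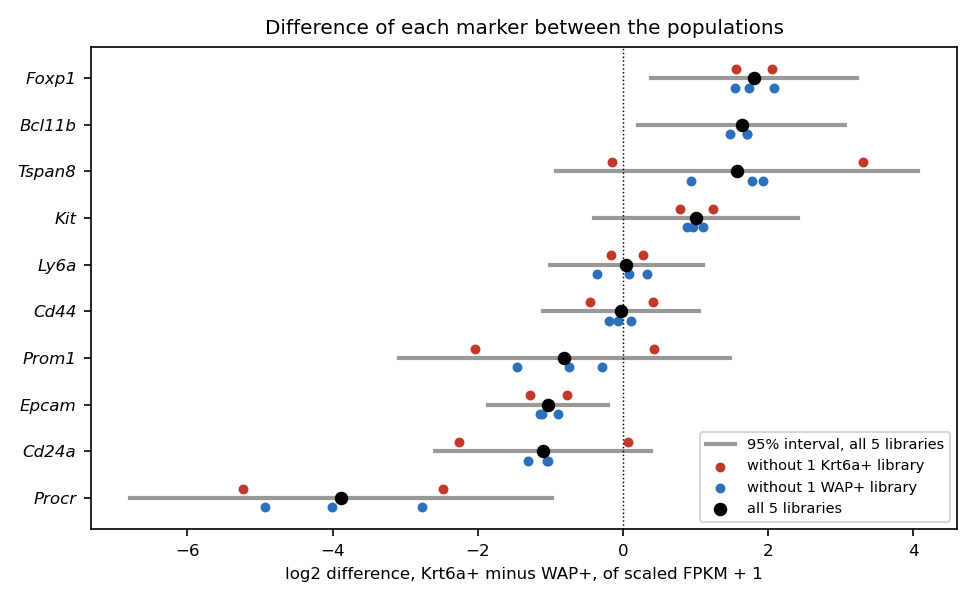
Log2 difference of scaled FPKM + 1, Krt6a+ minus WAP+, for the 10 markers (black, with the 95% interval in grey) and the same value without 1 Krt6a+ library (red) or 1 WAP+ library (blue). The intervals of Foxp1, Bcl11b, Epcam and Procr lie on 1 side of 0. The values of Tspan8, Ly6a, Cd44, Prom1 and Cd24a reach both sides when a library is left out. Bcl11b passed the filter through its Krt6a+ libraries alone, so its difference was partly set by the filter. It was below the filter without either Krt6a+ library and has no red points.

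Among 14 other FOXP and BCL11 factors and their repressor partners tested, none passed, also at an unadjusted p, and the median log2 difference was 0.16. Foxp4, the nearest in kind, was at 2.07 and 3.03 FPKM in Krt6a+ cells, against 0.793, 0.476 and 1.08 FPKM in WAP+ cells (0.92, limma adjusted p = 0.472). Gatad2a and Mta2, both subunits of the NuRD repressor complex, had 1.19 (adjusted p = 0.303) and 1.15 (adjusted p = 0.472).

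A wider list of surface markers used in sorting gave 1 call of 17 tested, beside 0.692% of all genes tested. At a limma unadjusted p under 0.05, 2 were higher and 4 lower, beside 7.66% and 9.45% of all genes tested. The median log2 difference was -0.34. Cd14, a co-receptor for bacterial lipopolysaccharide that is known on luminal progenitors, fell to 47.1 and 42.2 FPKM in Krt6a+ cells, against 306, 391.7 and 361 FPKM in WAP+ cells (log2 difference -3.07, SE 0.38, limma adjusted p = 0.0275). Ceacam1, an adhesion molecule (-2.39), and Muc1, a mucin of luminal surfaces (-3.83), both had an adjusted p of 0.0548. Muc1 passed the filter on low values through its WAP+ libraries alone, so its difference was partly set by the filter. Over all lists, 4 of 144 genes tested passed, beside 0.692% of all genes tested. They were Cd14 and Spp1, lower in Krt6a+ cells, and Tspan6 and Krt5, higher. None of the list genes passed without any 1 of the WAP+ libraries or without the filter, and Cd14 did not pass without the trend.

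For likeness, each marker was set beside every other gene tested by the root mean square difference of centred log2 values over the 5 libraries, where 0 means the same pattern. Between markers the closest pair was Foxp1 and Bcl11b at 0.42 log2 units, then Cd44 and Epcam at 0.51 and Kit and Bcl11b at 0.60. Procr was far from all, its nearest marker being Cd24a at 1.91. Values were not divided by their SD, so the distance also depends on how much each gene varied. Over the 5 libraries that SD was 0.376 log2 units for Cd44, 0.624 for Epcam and 2.78 for Procr. The 0.51 between Cd44 and Epcam therefore does not show a shared pattern. Among other genes, Bcl11b was nearest to Yod1 (0.03) and Tgfa (0.12), Foxp1 to Klk8 (0.15) and Rab22a (0.16), Kit to Mis12 (0.04) and Kif1c (0.09), and Tspan8 to Glis1 (0.33) and Il2rg (0.36). Procr had no near neighbour, with Dtymk (0.93) and Socs1 (0.94) the closest. Ly6a was nearest to Srp72 (0.10) and Akap8 (0.14), Cd44 to Paics (0.05) and Slc7a1 (0.08), and Epcam to 3110043O21Rik and Kat2a (0.07 each). Cd24a was nearest to Slc25a22 (0.12) and Nudt6 (0.14), and Prom1 to Dcun1d2 (0.26) and Fbxo25 (0.27). With 9682 genes and 5 libraries, near matches are to be found for most patterns, so these distances describe the libraries and nothing more.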

How the data were processed

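RNA of 2 Krt6a+ and 3 WAP+ sorted pools was sequenced as paired reads after SMART-Seq v4 amplification and Nextera tagmentation, which do not mark strand, per the labels' protocols. TopHat, Cufflinks and mm10 were used, per the submitters' processing notes; no version is named. Each deposited table gives, per the file headers, an FPKM for 34535 RefSeq transcripts, its 95% bounds and a coverage per base; the coverage signal was used only to gauge depth. Summed over transcript lengths, the deposited coverage came to 385 and 346 megabases in Krt6a+ cells, against 316, 352 and 290 megabases in WAP+ cells.

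FPKM was summed by symbol, divided by a median-ratio factor over the 5334 genes at 1 or more in all libraries, and filtered to genes at 1 FPKM or more in at least 2 libraries. The log2(scaled FPKM + 1) values of 9682 genes were fitted with limma 3.58.1 in R 4.3.3 (empirical Bayes with trend, 2-sided, Benjamini-Hochberg over all genes tested, threshold 0.05). Differences are on that scale and understate the change of low genes. The 5 libraries can be split in 10 ways, so an exact permutation p could not be under 0.1, and none was computed. Fragment numbers were estimated from the width of the deposited intervals, which covers counting error only. Of the estimates at or below 200 fragments, 24.9% to 27.0% lay within 0.02 of a whole number. For symbols with a single transcript this share was 38.2% to 42.1%, so the estimates are approximate. Gapdh was listed at 0 in 3 libraries and Eno1 in 5, so a value of 0 may reflect an estimate that failed.

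The markers and the lists of other genes were chosen with earlier results of these data known. Text names the markers and their transcripts, Krt6a, Wap, Krt5 and Krt8 as a check of the labels, up to 3 genes per list with the largest moderated statistic, and the 2 genes nearest each marker. Kitl, Ly6c1, Lck, Hdc, Ptprc and the Cd3 genes were added once their values had been seen; some genes that the rule names are not reported here. Alternatives were other pseudocounts (0.1 and 5), filters (none, and 5 FPKM), scalings, no trend, the highest transcript per symbol, a replicate block and leaving out each library.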

Additional observations from a re-analysis of the deposited data

How the results depend on the processing

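Under the 14 alternatives, 128 values of single markers kept their sign, 8 changed it and none passed the threshold (Bcl11b was tested in 11 of them and Prom1 in 13). With 1 library left out, the log2 difference of Ly6a ran over -0.35 to 0.33 (-0.17 without Krt6a+ library 3 and -0.35 without WAP+ library 3), that of Prom1 over -2.04 to 0.42 (0.42 without Krt6a+ library 3) and that of Cd24a over -2.26 to 0.074 (0.074 without Krt6a+ library 2). Tspan8 ran over -0.15 to 3.31 (-0.15 without Krt6a+ library 3). Cd44 ran over -0.45 to 0.42 (0.42 without Krt6a+ library 2 and 0.11 without WAP+ library 3) and was 0.094 without scaling. Procr, Kit, Epcam and Foxp1 kept their direction throughout. Bcl11b did so in the 11 alternatives that tested it. It passed the filter through its Krt6a+ libraries alone, so its direction was partly set by the filter and is no check. The cause of the sign changes was not tested. A fit without a Krt6a+ library leaves 1 there, which is assumed to vary like the WAP+ libraries.

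The count of genes past the threshold, 67, was 26 with a pseudocount of 0.1, 5 without a filter, 163 with the stricter filter, 16 without the trend and 34 with the replicate block, and ran over 5 to 147 with 1 library left out. The number of markers past it was 0 in each, and 5 markers did not overlap (34.8% of all genes), or 4 of 8 tested with the stricter filter (39.3% of all genes) and 5 to 7 with 1 library left out (44.6% to 64.8% of all genes). Of the list genes, 4 passed, or 7 with a pseudocount of 5, 0 without a filter, 14 with the stricter filter, 1 without the trend, and 0 to 10 with 1 library left out. The labels do not say that equal numbers pair Krt6a+ and WAP+ libraries, and the differences between numbers 2 and 3 correlated at 0.0286 across genes. Of the list medians, 173 moved by less than the spread between libraries and 16 by more. Depth limits Bcl11b in WAP+ cells (0.494 to 12.8 fragments), Procr in Krt6a+ library 2 (1.00), Prom1 in Krt6a+ library 3 (1.33) and Tspan8 in WAP+ library 3 (11.1).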

Other observations

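Keratins and contractile genes of the epithelial layers were described from the lists. Of 12 basal genes tested, Krt5, a keratin of basal cells, rose to 434 and 374 FPKM in Krt6a+ cells, against 22.4, 13.4 and 34.7 FPKM in WAP+ cells (log2 difference 4.02, limma adjusted p = 0.0275), a call lost without any 1 of the WAP+ libraries, without the filter on low values, without the trend and with the replicate block. Acta2, the smooth muscle actin of contractile basal cells, lay the other way, at 0.658 and 0.398 FPKM in Krt6a+ cells, against 23.7, 25.2 and 8.35 FPKM in WAP+ cells (-3.64, adjusted p = 0.0547). Acta2 passed the filter on low values through its WAP+ libraries alone, so its difference was partly set by the filter. Tagln, another contractile gene, had -3.58 (adjusted p = 0.0574). Keratin and contractile genes of one layer thus differed in direction, with a list median of 0.96. Of 10 luminal genes tested none passed, and the median was -0.69. At a limma unadjusted p under 0.05, 4 were lower, beside 9.45% of all genes tested. Krt18, a luminal keratin, stood at 353 and 1283 FPKM in Krt6a+ cells, against 4018, 3335 and 3534 FPKM in WAP+ cells (-2.54, adjusted p = 0.0607).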
